A study of Mus musculus with 12 samples.

Results

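The Toll-like receptor and NF-kB genes of the panel were 14 of its 748 endogenous genes, chosen by name alone as the endogenous probes whose symbols begin with the names of Toll-like receptors, their adaptors and kinases, TRAF proteins, NF-kB subunits and their regulators, or interferon regulatory factors. They were the receptors Tlr1, Tlr2, Tlr4 and Tlr7, the co-receptor Ly96, the adaptor Myd88, the signal transducers Traf1 and Traf6, the kinase Tbk1, the NF-kB subunits Nfkb1, Nfkb2 and Rela, and the interferon regulatory factors Irf1 and Irf4. RNA came from T cells pulled with CD90.2 beads out of subcutaneous KPC-Luc tumors, a mouse pancreatic ductal adenocarcinoma line grown in female C57BL/6 mice, and each mouse filled 1 lane of the nCounter Metabolic Pathways panel, which counts barcoded probes bound to RNA molecules without amplification. All mice carried the tumor and were treated from day 6 to 7 after implantation for 10 days. Control mice (Scram+IgG) received 10 µg of scrambled peptide daily and 200 µg of isotype IgG every 3 days. ANT008+IgG mice received ANT008, a peptide antagonist of the receptors for vasoactive intestinal peptide (VIP), with the isotype, Scram+aPD-1 mice received the scrambled peptide with anti-PD-1, and ANT008+aPD-1 mice received both agents. Each of the 4 groups had 3 mice. The isolated cells were 80 to 85% T cells, so RNA of other cells of the tumor could be in the tubes, and a change in the number of cells of a type cannot be told apart from a change in RNA per cell.

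Toll-like receptors bind microbial products and molecules released by damaged cells. TLR2 pairs with TLR1 to bind lipoproteins, TLR4 binds lipopolysaccharide with its partner MD-2, the product of Ly96, and TLR7 binds single-stranded RNA inside endosomes. Most of these receptors pass their signal to the adaptor MyD88 and on to the ubiquitin ligase TRAF6, which leads to release of NF-kB dimers such as p50 with RelA into the nucleus, while the kinase TBK1 activates interferon regulatory factors. In T cells NF-kB acts mainly below the antigen receptor and CD28, IRF4 is induced by antigen receptor signaling, TRAF1 is itself induced by NF-kB, and IRF1 is induced by interferon gamma. Macrophages and neutrophils express the Toll-like receptors far more than T cells do.

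The sequences that the assay reads are shown for 5 of the genes on which the results turn. Irf1, Nfkb2 and Traf1 were the genes above background in all 12 lanes, Ly96 differed between groups in the single-agent comparison, and Rela had the target richest in G and C. Each probe pair binds 100 bases of the transcript, given 5′ to 3′ as the panel definition has them.
Irf1: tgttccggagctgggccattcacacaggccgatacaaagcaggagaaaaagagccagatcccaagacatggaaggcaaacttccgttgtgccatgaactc
Nfkb2: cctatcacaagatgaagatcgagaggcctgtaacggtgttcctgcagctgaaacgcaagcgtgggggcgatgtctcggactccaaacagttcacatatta
Traf1: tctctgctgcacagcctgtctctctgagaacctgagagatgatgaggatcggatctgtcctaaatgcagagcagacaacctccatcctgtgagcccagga
Ly96: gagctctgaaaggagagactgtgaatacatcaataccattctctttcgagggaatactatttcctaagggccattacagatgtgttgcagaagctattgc
Rela: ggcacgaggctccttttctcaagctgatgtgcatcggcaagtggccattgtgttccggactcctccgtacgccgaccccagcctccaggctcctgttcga
Over the 14 targets the share of G and C ran from 42% in Ly96 to 61% in Rela.

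Several of the genes are also textbook targets of NF-kB, and the promoter table of RefSeq (GRCm38.p6) holds 10 of the 14. Within the 250 bases before a transcription start, the kappaB consensus was found on either strand at 3 of the 10, Irf1, Nfkb2 and Tlr2, against 8.23% of the 27025 genes in the table. The matching stretches are printed on the gene's strand with the matches in capitals, and overlapping matches run together in Nfkb2 and Tlr2.
Irf1, chr11:53769971-53770013, plus strand: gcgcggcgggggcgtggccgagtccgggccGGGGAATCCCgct
Nfkb2, chr19:46304668-46304736, plus strand: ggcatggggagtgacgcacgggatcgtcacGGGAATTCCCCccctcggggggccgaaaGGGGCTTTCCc
Tlr2, chr3:83841741-83841811, minus strand: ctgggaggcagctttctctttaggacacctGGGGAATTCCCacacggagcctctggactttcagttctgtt
The match of Irf1 began 13 bases before the start and that of Tlr2 173 bases before it. The core of the interferon-response element, a pair of GAAA blocks 2 bases apart, was searched on both strands and found at Myd88 alone of the 10, against 3.46% of all genes.
Myd88, chr9:119340019-119340088, minus strand: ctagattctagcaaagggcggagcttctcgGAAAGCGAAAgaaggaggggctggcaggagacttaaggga
These matches describe the letters of the promoters and say nothing of binding in these cells.

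Depth was very unequal between lanes. The endogenous counts of a lane summed to between 93480 and 1486646 in the 9 lanes of the first 3 groups, and to 5776, 268678 and 24813 in ANT008+aPD-1 mice 1, 2 and 3. The 8 negative control probes of a lane set its background (their mean with 2 SD added), which was between 9.94 and 28.2 counts. Counts were divided by a size factor for the lane, taken as the geometric mean of Dnajc14, Oaz1 and Ubb, the 3 housekeeping genes that exceeded background everywhere, and the result is called a scaled count. The scaled background was then at most 46.3 in the first 3 groups but 358, 13.8 and 149 in the 3 ANT008+aPD-1 lanes. The instrument's software flagged 2 lanes, Scram+IgG mouse 1 and ANT008+IgG mouse 1.

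Fewer of the 14 genes stood above background in the shallow lanes than in the others. In the 9 lanes of the other groups 120 of 126 values were above background, and in the ANT008+aPD-1 lanes 24 of 42. In ANT008+aPD-1 mouse 1 only Irf1, Traf1 and Nfkb2 were above background, at 23, 19 and 16 raw counts. The other 11 genes gave between 1 and 8 counts there, against a background of 9.94. Mouse 3 showed 7 of the genes above background, adding Nfkb1, Rela, Tbk1 and Tlr2 to those 3, and mouse 2 showed all 14. Of all 748 endogenous genes, 20.9%, 77.5% and 47.7% were above background in ANT008+aPD-1 mice 1, 2 and 3. Detection was thus low over the whole panel in mice 1 and 3. Counting error alone was large at this depth, since the 4 counts of Myd88 in mouse 1 have an exact 95% Poisson interval of 1.09 to 10.2 counts and the 19 of Traf1 one of 11.4 to 29.7. These intervals cover counting error only. A scaled count that is not above the scaled background of its lane is therefore not a measured level.

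**Figure D1:**
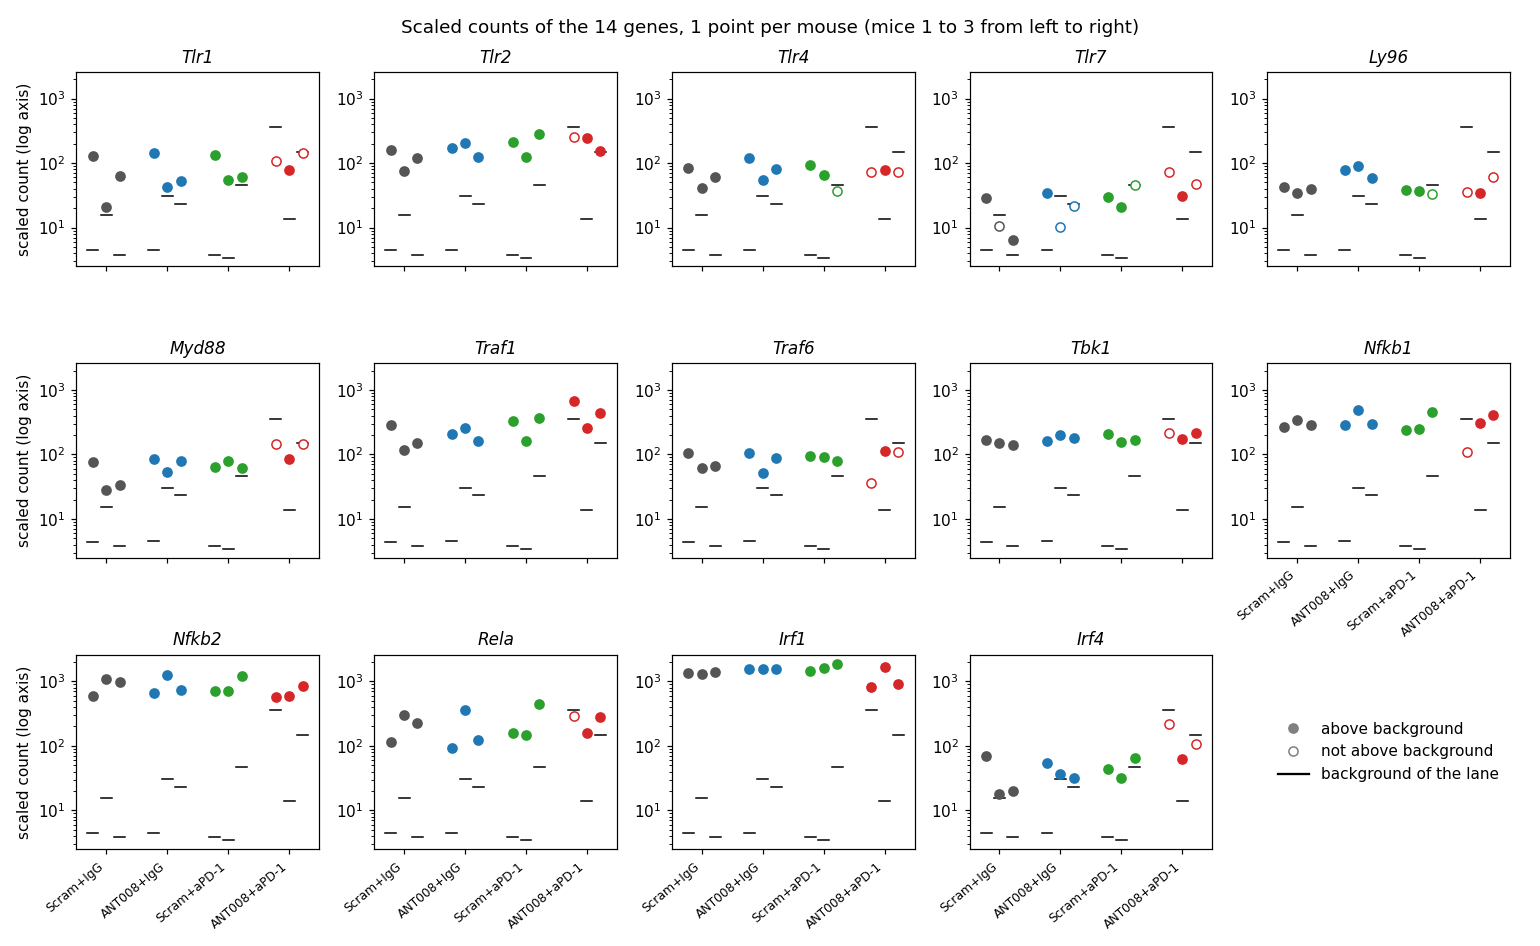
Scaled counts (log axis) of the 14 genes, with 1 point per mouse and 3 mice per group, filled where the raw count was above the lane's background and open where it was not; black bars mark the scaled background of each lane. In the ANT008+aPD-1 group most points of mice 1 and 3 are open and lie below bars at 358 and 149, and only Irf1, Nfkb2 and Traf1 are filled in all 12 lanes.

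The cells carried T cell transcripts. The panel held 9 T cell markers, among them Cd3d, Cd3e, Cd4 and Cd8a, and all 9 were above background in every lane except ANT008+aPD-1 mouse 1, where 6 were. Macrophage and neutrophil markers were present too, with 6 or 7 of 7 above background in the other groups and 4 to 6 with ANT008+aPD-1.

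None of the 14 genes passed an FDR below 0.1 in any of the 6 comparisons. The edgeR quasi-likelihood test with Benjamini-Hochberg adjustment called 0 of 640 genes, 0%, in each of them, so the count of 0 among the 14 is that of the panel. The smallest adjusted p of a Toll-like receptor or NF-kB gene was 0.309, of Myd88 with ANT008+aPD-1 against Scram+IgG. Counts at an unadjusted p below 0.05 are given below to order the genes and are not calls.

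Against Scram+IgG, the combination gave the largest log2 fold changes in Irf4, Tlr7, Myd88 and Traf1. At an unadjusted p below 0.05 were 3 of the 14 genes (Myd88, Traf1 and Irf4, all higher), against 12.8% of all genes tested in either direction. The log2 fold change was above 0 in 11 of 14, against 56.7% of all genes, and its median was 0.34, against 0.12. With TMM scaling 9 of 14 and 294 of the 640 genes were above 0. With the negative control mean subtracted from each lane, 5 of 14 and 213 of 640 were above 0, and the median over all genes moved to -0.38. DESeq2 called 30 of 640 genes in this comparison and none of the 14.

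Myd88, the adaptor shared by nearly all Toll-like receptors, had the smallest p. Its scaled counts were 76.3, 27.6 and 33.6 in Scram+IgG mice 1, 2 and 3 and 84.5, 53.3 and 79.8 in the ANT008+IgG mice. They were 62.8, 79.1 and 61.5 in the Scram+aPD-1 mice and 144, 86.0 and 144 in the combination. Every ANT008+aPD-1 mouse was above every mouse of the other 3 groups, but the values of mice 1 and 3 rest on 4 and 12 raw counts, both below background. The log2 fold change against Scram+IgG was 1.34 ± 0.46 (SE; adjusted p = 0.309), and with mouse 2 as the only ANT008+aPD-1 lane it was 0.89. Within the lane, Myd88 in ANT008+aPD-1 mouse 2 had 0.051 counts per count of Irf1, inside the range of 0.021 to 0.057 of the control lanes. Mice 1 and 3 had 0.174 and 0.160, above all other lanes, from Myd88 counts that were not above background.

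Traf1, which binds TNF receptor family members and is induced by NF-kB, was the gene with the largest difference among those above background in every lane. Scaled counts of the gene were 283, 119 and 150.1 in the controls and 209, 259.9 and 162 in the ANT008+IgG mice. They were 329, 159 and 365 in the Scram+aPD-1 mice and 685, 257 and 445 in the combination. Mice 1 and 3 of the combination were the highest of the 12 and mouse 2 lay within the control range, so the groups overlapped. The log2 fold change was 1.26 ± 0.49 (SE; adjusted p = 0.337) against Scram+IgG and 1.07 ± 0.49 (adjusted p = 0.578) against ANT008+IgG. It stayed above 0 in all 17 other settings, between 0.48 without mice 1 and 3 and 1.69 without Scram+IgG mouse 1.

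Irf4, a factor that rises with the strength of antigen receptor signaling, had the largest fold change of the 14. Its values, as scaled counts, were 70.1, 18.1 and 19.7 in the controls and 54.2, 36.1 and 31.9 in the ANT008+IgG mice. They were 43.2, 31.5 and 65.6 in the Scram+aPD-1 mice and 216, 61.5 and 108 in the combination. The 2 highest values were again of mice 1 and 3, at 6 and 9 raw counts and below background, while mouse 2 lay inside the control range. The log2 fold change against Scram+IgG was 1.58 ± 0.65 (SE; adjusted p = 0.357), and 0.48 after background subtraction. Against ANT008+IgG it was 1.39 ± 0.66 (adjusted p = 0.578).

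Scram+IgG mouse 1 weighed on all of these values. It had the highest control level of Irf4, Myd88, Tlr7 and Traf1, and its lane carried the software's flag. It also stood apart in cell markers, with a summed scaled count of 4771 for the T cell markers against 823 and 808 in Scram+IgG mice 2 and 3, 1655 against 161 and 245 for the 3 NK cell markers, and 3964 against 953 and 1526 for the 7 myeloid markers. The part of these markers in the values without this mouse was not tested. Without it the combination passed an FDR of 0.1 in those 4 genes, at log2 fold changes of 2.51 (adjusted p = 0.035), 1.92 (0.035), 2.35 (0.070) and 1.69 (0.068), and 84 of the 640 genes passed. In Irf4, Myd88 and Tlr7 the values of ANT008+aPD-1 mice 1 and 3 were not above background. Without ANT008+aPD-1 mouse 2, the deepest lane of its group, Myd88 at 1.64 and Traf1 at 1.59 passed (both adjusted p = 0.096), among 68 genes. The combination in that fit rests for Myd88 on 4 and 12 raw counts in mice 1 and 3, both below background. For Traf1 it rests on 19 and 37, both above background. Without ANT008+aPD-1 mice 1 and 3 none passed.

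**Figure D2:**
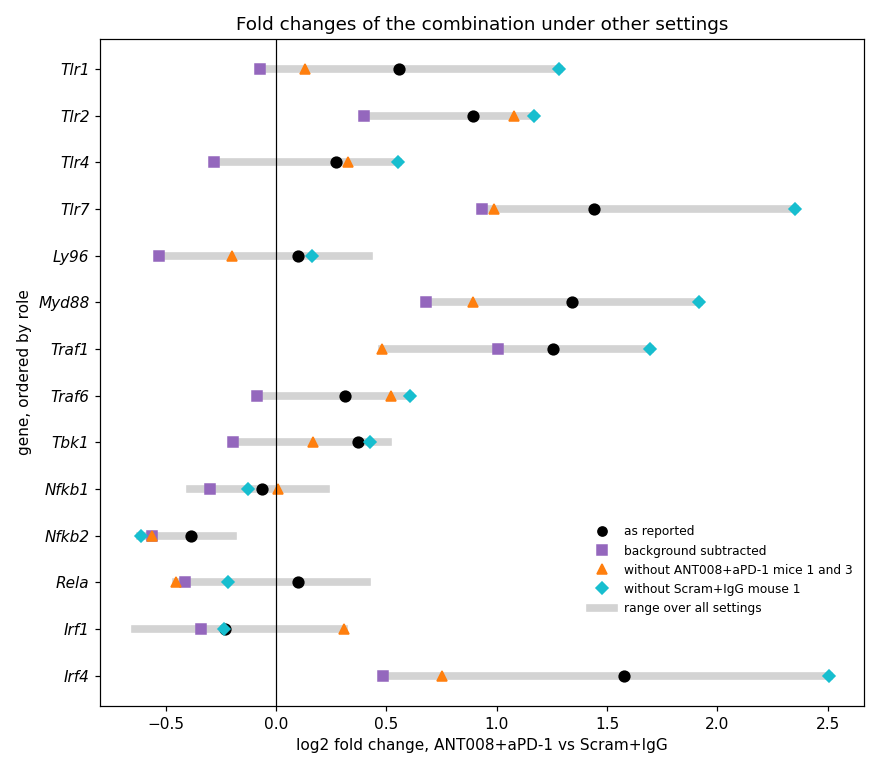
Log2 fold change of each gene in ANT008+aPD-1 against Scram+IgG, ordered by role, as reported (black circles) and under 3 other settings, with the range over all settings as a grey bar. Irf4, Tlr7, Myd88, Traf1 and Tlr2 stay above 0 throughout, at different sizes, and Nfkb2 stays below 0. The ranges of Ly96, Rela, Nfkb1, Irf1, Tbk1, Tlr1, Tlr4 and Traf6 fall on both sides of 0.

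Among the surface receptors, Tlr2 showed the most regular difference. Its scaled counts were 158, 74.3 and 119 in the controls and 170.0, 207 and 126 in the ANT008+IgG mice. They were 214, 126 and 283 in the Scram+aPD-1 mice and 252, 249 and 156 in the combination. The lowest mouse of all was a control, and 2 of the 3 mice of each treated group were above the highest control, although the 252 comes from 7 raw counts below background. The log2 fold change against Scram+IgG was 0.51 ± 0.39 in the ANT008+IgG mice, 0.80 ± 0.39 (adjusted p = 0.988) in the Scram+aPD-1 mice and 0.89 ± 0.41 (adjusted p = 0.376) with the combination. In ANT008+aPD-1 mouse 2 alone, at 315 raw counts, it was 1.08.

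Tlr1, the partner of Tlr2 for triacylated lipoproteins, differed less. The lanes gave scaled counts of 129, 20.9 and 63.8 in the controls and 144, 43.0 and 51.9 in the ANT008+IgG mice. They were 135, 54.9 and 61.5 in the Scram+aPD-1 mice and 108, 78.9 and 144 in the combination, where only mouse 2 was above background. Mouse 1 was the highest of its group in the first 3 groups, which overlapped fully, and the log2 fold change of the combination was 0.56 ± 0.71. Tlr1 had the widest range of the 14 genes among lanes above background, 6.87-fold.

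The endotoxin receptor Tlr4 gave no regular difference. Its scaled counts were 83.9, 40.9 and 61.0 in the controls, 118, 55.1 and 81.8 in the ANT008+IgG mice, and 91.8, 65.8 and 36.9 in the Scram+aPD-1 mice. With ANT008+aPD-1 they were 72.1, 78.1 and 72.2, of which mice 1 and 3 (2 and 6 raw counts) were below background. The 36.9 of Scram+aPD-1 mouse 3 was below background too, at 9 raw counts. All 3 of the combination lay inside the control range, and the log2 fold changes against Scram+IgG were 0.46 ± 0.41, 0.10 ± 0.41 and 0.27 ± 0.46 for ANT008+IgG, Scram+aPD-1 and the combination.

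Ly96, whose product MD-2 holds lipopolysaccharide for TLR4, had the smallest unadjusted p of the 14 with ANT008+IgG. Scaled counts stood at 78.0, 91.2 and 57.9 in the ANT008+IgG mice, all above background, against 42.4, 34.3 and 39.9 in the controls. They were 37.7, 36.7 and 32.8 in the Scram+aPD-1 mice and 36.0, 33.9 and 60.2 in the combination. Each ANT008+IgG mouse was above each mouse of the control and anti-PD-1 groups. Among these, the 32.8 of Scram+aPD-1 mouse 3 came from 8 raw counts, below background. The log2 fold change against Scram+IgG was 0.96 ± 0.33 (SE; adjusted p = 0.999), the second smallest unadjusted p of the 640 genes. In ANT008+aPD-1, mouse 2 with 43 raw counts was at the control level, mice 1 and 3 had 1 and 5 counts, and the difference from ANT008+IgG was -0.86 ± 0.39 (adjusted p = 0.578). The interaction of the 2 agents was -0.75 ± 0.52 (adjusted p = 0.993), so a difference of the ANT008 effect with and without anti-PD-1 was not shown.

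Tlr7, the endosomal receptor for single-stranded RNA, was the faintest of the 14, above background in 6 of 12 lanes. Its scaled counts were 28.8, 10.5 and 6.41 in the controls and 33.8, 10.3 and 22 in the ANT008+IgG mice. They were 29.9, 20.6 and 45.1 in the Scram+aPD-1 mice and 72.1, 30.8 and 48.1 in the combination. In the combination only mouse 2, with 39 raw counts, was above background, and its 30.8 compares with 28.8 in the highest control. The fitted log2 fold changes of 0.97 ± 0.63 in the Scram+aPD-1 mice and 1.44 ± 0.72 (adjusted p = 0.429) with the combination thus rest in part on lanes that were not above background.

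Below the receptors, Traf6 and Tbk1 differed little. Traf6, the ligase that carries the MyD88 signal, had scaled counts of 105, 60.9 and 66.2 in the controls, 106, 51.6 and 87.8 in the ANT008+IgG mice, 93.2, 90.6 and 77.9 in the Scram+aPD-1 mice, and 36.0, 111 and 108 in the combination, the first and last of these from 1 and 9 raw counts. The groups overlapped, and the log2 fold change of the combination was 0.31 ± 0.41. Tbk1 had 165, 152 and 139.8 in the controls, 159.9, 203 and 182 in the ANT008+IgG mice, 207, 159 and 168 in the Scram+aPD-1 mice, and 216, 171 and 217 in the combination. It varied least of all 14 genes, 1.55-fold over the lanes above background. The ANT008+aPD-1 mice were all above the controls in Tbk1, with mouse 1 below background at 6 raw counts, yet the log2 fold change was only 0.37 ± 0.28 (adjusted p = 0.585).

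The differences in the NF-kB subunits were within the spread of the mice. Nfkb1, the precursor of p50, had scaled counts of 269, 346 and 291 in the controls, 284, 496 and 293 in the ANT008+IgG mice, 243, 250.4 and 459 in the Scram+aPD-1 mice, and 108, 304 and 409 in the combination, the first of these below background at 3 raw counts. Nfkb2, the precursor of p52, had 587, 1106 and 971 in the controls, 651, 1248 and 729 in the ANT008+IgG mice, 701, 709 and 1229.5 in the Scram+aPD-1 mice, and 577, 600.5 and 854 in the combination. The combination group overlapped the controls in both, at log2 fold changes of -0.06 ± 0.44 and -0.39 ± 0.41. Nfkb2 was below 0 in the combination under all 17 other settings (-0.61 to -0.20), and it passed the test in none of them.

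Rela, the transactivating subunit, had 114, 299.9 and 230.1 in the controls, 91.1, 355 and 124 in the ANT008+IgG mice, 161, 149 and 443 in the Scram+aPD-1 mice, and 288, 156 and 277 in the combination. Mouse 1 of the combination had 8 raw counts, below background. The spread within a group exceeded any difference between groups, with log2 fold changes of -0.18 ± 0.59, 0.20 ± 0.59 and 0.10 ± 0.63 against Scram+IgG.

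Ratios within a lane do not depend on the scaling, but Rela per Irf1 moves with either gene. In ANT008+aPD-1 mice 1 and 3 scaled Irf1, at 829 and 902, was below all controls. Scaled Rela, at 288 and 277, lay inside the control range in these 2 mice. Rela counts per count of Irf1 were 0.084, 0.231 and 0.164 in the Scram+IgG lanes, 0.058, 0.225 and 0.080 in the ANT008+IgG mice, 0.111, 0.093 and 0.242 in the Scram+aPD-1 mice, and 0.348, 0.093 and 0.307 in the combination. The 5 highest lanes were Scram+IgG mouse 2, ANT008+IgG mouse 2, Scram+aPD-1 mouse 3 and ANT008+aPD-1 mice 1 and 3. The ratio of 2 of the housekeeping genes used for scaling, Dnajc14 per Oaz1, was highest in the same 5 lanes, with 0.138, 0.618 and 0.309, then 0.135, 1.296 and 0.153, then 0.196, 0.181 and 0.929, then 0.343, 0.197 and 0.811 in the same order. ANT008+aPD-1 mouse 1 has its rank from few raw counts, 12 of Dnajc14 and 35 of Oaz1, and 8 of Rela and 23 of Irf1. The next lane in Dnajc14 per Oaz1, Scram+IgG mouse 3, had 2135 and 6902. The scaling genes thus did not keep a fixed ratio. The summed scaled count of the 2 stromal markers on the panel, Col6a1 and Pdgfrb, was 329, 2490.0 and 1512 in the Scram+IgG lanes, 365, 2697 and 497 in the ANT008+IgG lanes, 335, 417 and 1770.5 in the Scram+aPD-1 lanes and 469, 301 and 686 in the combination, with 1 of the 2 markers above background in 6 of the 12 lanes, all 3 of the combination included, and both in the others. It was highest in Scram+IgG mouse 2, ANT008+IgG mouse 2 and Scram+aPD-1 mouse 3, which are 3 of those 5 lanes. Nfkb2 per Irf1 and Rela per Nfkb1 were not highest in the same 5 lanes. Scram+IgG mouse 3, at 0.690 and 0.792, was among the 5 highest lanes of both. It ranked above Scram+aPD-1 mouse 3 (0.673) in the first ratio and above ANT008+aPD-1 mouse 3 (0.676) in the second. The part of the scaling genes and of stromal RNA in the spread of Rela, Nfkb1 and Nfkb2 was not tested.

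**Figure D3:**
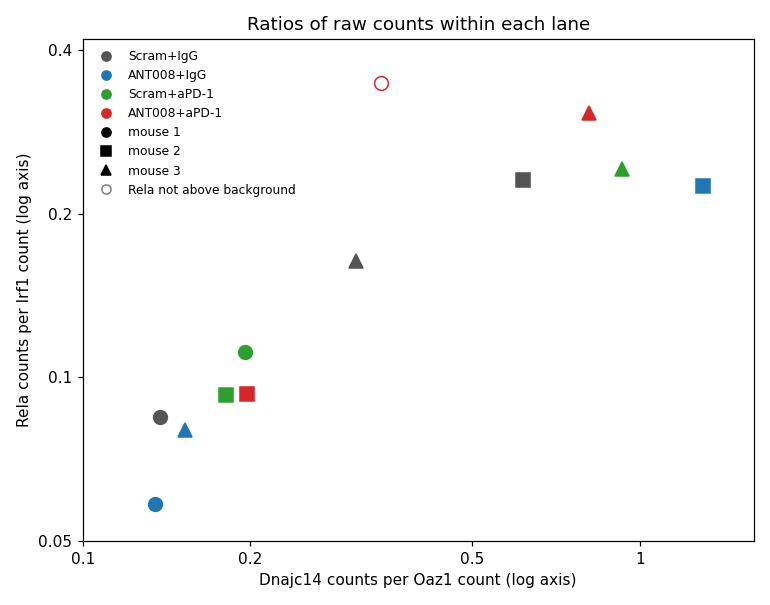
Raw counts of Rela per count of Irf1 against raw counts of Dnajc14 per count of Oaz1 in each of the 12 lanes (both log axes), colored by group with a symbol for each mouse number; the open symbol marks a lane where Rela was not above background. Both ratios are high in lanes of every group, such as Scram+IgG mouse 2 (0.231 and 0.618) and Scram+aPD-1 mouse 3 (0.242 and 0.929).

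Irf1, a transcription factor induced by interferons, varied little outside the combination. The gene had scaled counts of 1347, 1301 and 1406 in the controls, 1558, 1576 and 1549 in the ANT008+IgG mice and 1447, 1601 and 1828 in the Scram+aPD-1 mice. On this scale every mouse on a single agent was above every control. The log2 fold changes were 0.21 ± 0.34 and 0.27 ± 0.34 and did not pass the test (adjusted p = 0.999 and 0.988). As a share of the total endogenous count both groups overlapped the controls. Irf1 made 916 of 202511 counts in ANT008+IgG mouse 2 and 446 of 93480 in Scram+aPD-1 mouse 3. These shares were below those of all controls, the lowest being 1366 of 256703 in Scram+IgG mouse 2. With ANT008+aPD-1 the scaled counts were 829, 1674 and 902, from 23, 2122 and 75 raw counts, so the deepest lane was above all controls and the shallow lanes below them. The group's log2 fold change was -0.23 ± 0.34, and without mice 1 and 3 it was 0.31.

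The single agents gave few differences in these genes. With ANT008+IgG, Ly96 alone of the 14 was at an unadjusted p below 0.05, against 0.469% of all genes, and 12 of 14 log2 fold changes were above 0, against 66.7% (with TMM scaling 12 of 14 and 296 of 640). The median was 0.23 over the 14 and 0.11 over all genes. On the scale of the 3 housekeeping genes, Ly96 and Irf1 were higher without overlap between mice, against 2.97% of all genes. None of the 14 was lower without overlap, against 0.469%. With Scram+aPD-1, none of the 14 was at a p below 0.05, against 1.09% of all genes, and 12 of 14 were above 0, against 62.7% (with the total count as the scale 9 of 14 and 272 of 640). Irf1 alone was higher without overlap on the scale of the 3 housekeeping genes, against 2.97%, and none lower, against 1.09%. As a share of the total endogenous count, Irf1 overlapped the controls with either agent. The comparisons with Scram+IgG share their 3 control mice, so that a low control, such as Scram+IgG mouse 2 in Myd88, Tlr1, Tlr2, Tlr4, Traf1 and Traf6, enters all of them.

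**Figure D4:**
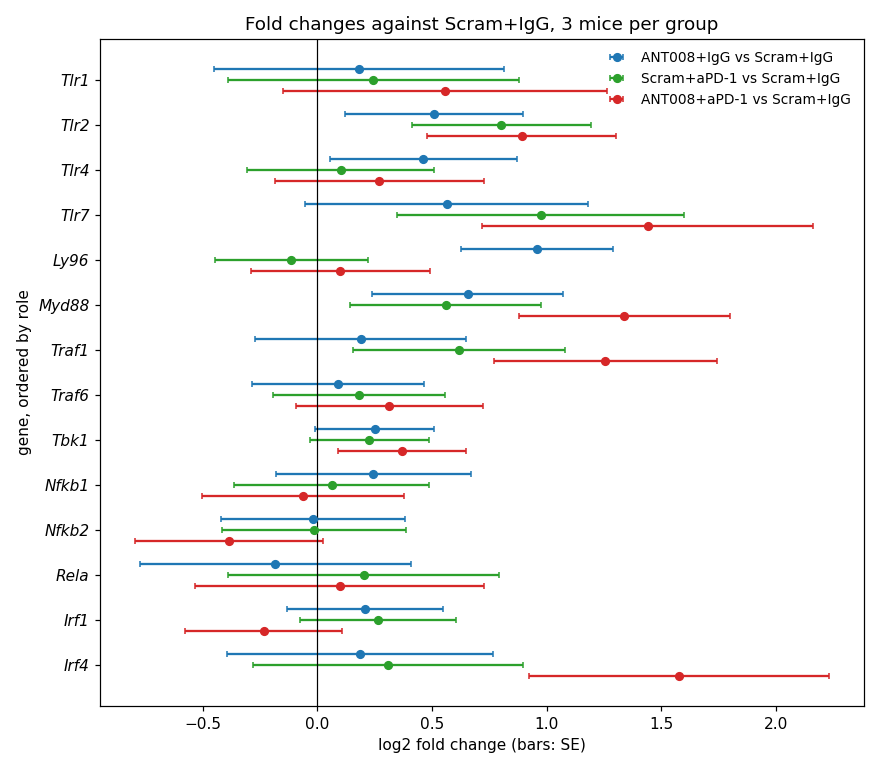
Log2 fold changes of the 14 genes against Scram+IgG in the 3 treated groups (3 mice per group), ordered by role, with bars of 1 SE. Ly96 is highest with ANT008+IgG at 0.96, and Irf4, Tlr7, Myd88 and Traf1 are highest with the combination (1.26 to 1.58).

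In the combination, the scaled counts of Myd88, Tbk1 and Tlr7 did not overlap with Scram+IgG and were higher, against 7.81% of all genes, and none was lower, against 5.78%. Mice 1 and 3 in Myd88 and Tlr7 and mouse 1 in Tbk1 were not above background, so a separation of these mice from the controls was not measured. Adding anti-PD-1 to ANT008 left 9 of 14 above 0, against 48.8% of all genes (4 of 14 and 181 of 640 after background subtraction), with Traf1 higher and Ly96 lower at an unadjusted p below 0.05, against 7.81%. The scaled counts of Irf4 and Myd88 were higher without overlap there, against 6.25%, and none was lower, against 7.34%, but mice 1 and 3 of the combination were not above background in either gene. Adding ANT008 to anti-PD-1 left 10 of 14 above 0, against 47.8% (3 of 14 and 148 of 640 after background subtraction, 12 and 392 with the total count as the scale), none at a p below 0.05, against 6.25%, and Myd88 alone higher without overlap, with the same limit, at 0.78 ± 0.46 (adjusted p = 0.751), against 4.53%, with none lower, against 7.34%. In the interaction 6 of 14 were above 0, against 40.2% (2 of 14 and 136 of 640 after background subtraction, 8 and 378 with the total count as the scale), and none was at a p below 0.05, against 1.41%. The largest interactions were those of Irf4 (1.08 ± 0.88), Ly96 (-0.75 ± 0.52) and Irf1 (-0.71 ± 0.48), all at an adjusted p of 0.993.

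Markers of other cells differed between the groups as well, without passing the test. The summed scaled count of the 7 myeloid markers ran from 953 to 3964 with Scram+IgG, 1010 to 3254 with ANT008+IgG, 1671 to 6178 with Scram+aPD-1 and 4433 to 7557 with ANT008+aPD-1. In the combination all 7 had a log2 fold change above 0 (median 1.53; all genes 56.7% and 0.12), with the smallest p in Cd14 (2.36 ± 0.53, adjusted p = 0.242), the lipopolysaccharide co-receptor of TLR4. The 9 T cell markers summed to 808 to 4771 in the controls and 3542 to 5138 with the combination, with 8 of 9 above 0 (median 0.88). In ANT008+aPD-1 mouse 1 both sums include markers that were not above background. The myeloid sum there rests on 123 raw counts, with 4 of 7 markers above background, and the T cell sum on 120, with 6 of 9. In ANT008+aPD-1 mice 2 and 3, 6 of the 7 myeloid markers and all 9 T cell markers were above background. In ANT008+aPD-1 mouse 2, the deepest lane of its group, the myeloid and T cell sums were 5123 and 3542. The part of either list in the differences of Myd88, Tlr2 and Traf1 was not tested.

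The known targets of NF-kB gave no call either. Of 15 known NF-kB targets none passed an FDR of 0.1 in the combination, 13 were above 0 and the median was 0.69, where 56.7% of all genes were above 0 with a median of 0.12. At an unadjusted p below 0.05 were 7 of the 15, 5 higher and 2 lower, against 12.8% of all genes tested in either direction. The higher ones included the cytokines Il10 (3.82 ± 0.79, adjusted p = 0.242) and Il2 (2.93 ± 0.92, adjusted p = 0.309) and the enzymes Nos2 (2.59 ± 0.70, adjusted p = 0.309) and Ptgs2 (1.83 ± 0.84, adjusted p = 0.376), which were above background in 6, 7, 10 and 12 of the 12 lanes. Tnf had a log2 fold change of 1.44 ± 0.52 (adjusted p = 0.323), while the growth genes Ccnd1 and Myc were at -1.40 ± 0.56 and -1.16 ± 0.49 (adjusted p = 0.351 and 0.362). In ANT008+aPD-1 mice 1, 2 and 3, 7, 15 and 11 of the 15 targets were above background. Their summed raw counts were 190, 11615 and 719. The fold changes of the combination thus rest in part on values of mice 1 and 3 that were not above background. With the single agents, 12 of the 15 NF-kB targets were above 0 in each, at medians of 0.36 and 0.51, where 66.7% and 62.7% of all genes were above 0 with ANT008+IgG and Scram+aPD-1.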

How the data were processed

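The authors deposited raw nCounter counts of each probe in 12 lanes, without background subtraction, scaling or pooling, and the vendor's panel definition with the probe targets. A normalization and a test for single genes are not given in the sources used here beyond the thresholds that the study draws (FDR 0.1 and 4-fold). Groups were taken from the sample titles. The 14 genes and the marker and pathway lists were chosen with earlier results of these data known. All 14 were named, with values in all lanes.

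Scaling used the geometric mean of Dnajc14, Oaz1 and Ubb, which were the 3 of 20 housekeeping genes to exceed background in all 12 lanes. Of the endogenous genes, 640 exceeded background in 3 or more lanes, and these, all 14 among them, were tested with edgeR 4.0.16 in R 4.3.3 (glmQLFit, glmQLFTest), with the 4 groups in 1 fit and Benjamini-Hochberg adjustment over the 640. Standard errors are the log2 fold change over the square root of the F statistic. DESeq2 1.42.0 and limma 3.58.1 on log2(scaled count + 1) were alternatives, besides other scalings, filters, background subtraction with a floor of 1, a fit of the compared groups, and lanes left out. No 2 lanes of a group agreed within counting noise (chi-square per degree of freedom 3.63 or more). Positive control scaling was not used, since values were set relative to housekeeping genes. Some results of the marker and pathway lists are not reported here.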

Additional observations from a re-analysis of the deposited data

How the results depend on the processing

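Over the 12 counts (genes past an FDR of 0.1 and genes above 0, in 6 comparisons), 198 of 214 values under other settings stayed the same. For genes past an FDR of 0.1 this means an equal count, and for genes above 0 a count within 1.5 times. Genes past an FDR of 0.1 remained at 0, except in ANT008+aPD-1 against Scram+IgG, where leaving out a mouse gave 0 to 4. Genes above 0 ran from 10 to 14 and 10 to 13 in the single-agent comparisons, 9 to 12 in the combination against Scram+IgG, 9 to 9 and 9 to 11 against ANT008+IgG and Scram+aPD-1, and 2 to 7 in the interaction when 1 mouse was left out (2 without Scram+IgG mouse 1 or ANT008+aPD-1 mouse 3, 3 without ANT008+IgG mouse 2). With background subtraction the 4 counts that include the combination fell to 5, 4, 3 and 2, and without ANT008+aPD-1 mice 1 and 3, which leaves a lone lane assumed to vary like the other groups, the interaction count was 2. Only 3 of the 14 were above background in all 12 lanes, and with that filter 2 were above 0 with each single agent and 1 in each other comparison.

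For ANT008+aPD-1 against Scram+IgG the log2 fold change turned its sign with background subtraction in Ly96 (-0.53), Rela (-0.41), Tbk1 (-0.20), Tlr1 (-0.073), Tlr4 (-0.28) and Traf6 (-0.086), with TMM in Ly96 (-0.065) and Rela (-0.14), with DESeq2 in Rela (-0.050), and without mice 1 and 3 in Irf1 (0.31), Nfkb1 (0.011), Ly96 (-0.20) and Rela (-0.45). Leaving out 1 mouse gave -0.18 to 0.42 for Ly96, -0.39 to 0.23 for Nfkb1 and -0.22 to 0.41 for Rela. The cause was not tested. TMM scaling moved the median over all genes in this comparison from 0.12 to -0.096.

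The sources used here link mice with the same number by that number alone. Their deviations from the group means correlated over 0.1 in 7 of 18 pairs, and 7 of 12 lanes correlated better with their own number. The highest r was 0.78, between ANT008+IgG mouse 1 and Scram+IgG mouse 1. Scram+aPD-1 mouse 1 correlated with them at 0.68 and 0.76. Mouse 1 of the combination correlated with these lanes at -0.25 to -0.11. T cell marker sums were highest of their group in these lanes, at 3156, 4771 and 3062. What the lanes have in common was not tested. With the replicate number as a block, 0 of the 14 passed in each comparison, and 11 of 14 stayed above 0 in the combination. Depth limits the combination, where 18 of 42 values were not above background.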
